A study of Mus musculus with 2 samples.

Results

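Control-enriched bins are 1 kb stretches of the mouse autosomes in which the ratio of control to NcoA3 ChIP reads was at least about 4 times that of the 100 kb around them. Bins were laid from position 1 of chromosomes 1 to 19 on mm8, and a bin was eligible with 10 to 29 control read 5′ ends. It was called control-enriched where (control reads + 1) × s / (ChIP reads + 1) was 4 or more, with s the ratio of ChIP to control reads in the fixed 100 kb bin that holds it. Of 2462432 autosomal bins, 418502 were eligible and 21228 met the rule, which is 5.07% of the eligible bins (95% Clopper-Pearson interval 5.01% to 5.14%). Counts of both libraries chose these bins, so their own counts and ratios are a description and support nothing.

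Both libraries came from E14 cells (E14Tg2A), an established mouse embryonic stem cell line kept undifferentiated on gelatin with leukaemia inhibitory factor and no other treatment. The first was made by chromatin immunoprecipitation and sequencing (ChIP-seq) with an antibody against NcoA3 (11509916 reads, 11154268 of them on autosomes). The second is the control (15125180 reads, 14772205 on autosomes), titled input but with IgG in its antibody field, so the labels do not settle which it was. Each group was 1 library, and no difference below has a replicate check. Intervals are at 95%, reflect counting error alone and treat reads or bins as independent. Amplified reads carrying no molecular identifier need not stand for separate molecules, and neighbouring bins share fragments.

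NcoA3, also called SRC-3, is a coactivator that binds nuclear receptors and other transcription factors and brings histone acetyltransferases to their sites. An input control samples sheared chromatin without precipitation. Its coverage is known to be uneven, because open chromatin shears more readily than compact chromatin, and because base composition and the uniqueness of a sequence change how often a fragment is amplified and aligned. An IgG control passes through precipitation with a nonspecific antibody and also carries such unevenness. Peak callers use the control to set a local background, so places where it is locally high raise the bar for a ChIP peak.

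At the median, control-enriched bins combined a raised control with few ChIP reads. The control held a median of 15 reads per bin, and the ChIP library a median of 1, with a range of 0 to 8. In the 100 kb around each bin, the mean per 1 kb had a median of 7.33 reads in the control and 4.79 in the ChIP library. The control was therefore 2.14 times its surroundings at the median bin, while the ChIP library was at 0.209 times. In the 397274 eligible bins that missed the rule, the control was at 1.45 times its surroundings and the ChIP library at 1.02 times. At the median bin the fall in ChIP reads was thus larger, as a ratio, than the rise of the control. The rule sets the ratio of the libraries and also limits the control count of a bin, which caps how far the control can rise. The larger fall in ChIP reads thus follows in part from the rule. Neither library is held to a level relative to its own surroundings, so single bins went against the median pattern. In these the control was as low as 0.0884 times or the ChIP library as high as 5.88 times its surroundings. Such bins were rare: in 95% of members the control was at 1.13 times or more, and in 95% the ChIP library was at 0.578 times or less. The extremes also depend on the surroundings. Their means ran from 0.54 to 135.78 control reads and from 0.3 to 70.51 ChIP reads per kb.

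Most of these bins sat near the lower limits of what can be counted. The number of bins depends on the settings: it was 51598 with s from all autosomal reads, 32101 with a pseudocount of 0.5, 11836 at a ratio of 5 or more and 10926 with 15 to 29 control reads. Of the 21228, 6154 (28.99%) held no ChIP read, 8751 (41.2%) held 1, and 4577 (21.6%) held 2. With 0 reads counted, up to 3 remain possible in a bin, or 0.261 RPM of the ChIP library. With about 5 ChIP reads per kb in the surroundings, a low count in 1 bin is only weakly bounded. Bins with 10 to 14 control reads made up 48.5%, and those with 20 or more made up 27.3% (5805 bins), of which 1080 held no ChIP read. Of the eligible bins, 19532 (4.67%) would miss the rule even with no ChIP read, because s is low there, and control-enriched bins were 5.32% of the rest.

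The limit of 4 cut through a continuous range of values. The 1389 bins at a ratio from 4 to under 4.1 had medians of 14 control and 2 ChIP reads and a median s of 0.673. The 1364 bins from 3.9 to under 4 had the same medians, with s at 0.663. On the read limits, 3270 bins with 9 control reads and 880 with 30 to 32 also reached the ratio. Over the members the ratio ran from 4 to 33.9 with a median of 5.22, and 95% of bins were at 11.2 or below.

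Chromosome 18 was left out when bins and clusters were named. On the other autosomes, the 10 bins with the highest ratio held 20 to 28 control reads and no ChIP read. Highest of all was chr3:124313001-124314000, with 22 control and 0 ChIP reads where the surroundings averaged 3.85 and 5.67. Taking 3 ChIP reads per bin as the floor for a count of 0, its control was at least 10.8-fold higher than the scaled ChIP library. This bound and those below take the control count as exact. They leave out the counting error of the control, and the bins were chosen for their high ratio. Second was chr16:52372001-52373000, with 26 control and 0 ChIP reads and at least a 10.02-fold difference. The bin chr8:102305001-102306000 held 25 control reads and was at least 9.14-fold higher, and chr4:37139001-37140000 held 23 and was at least 8.89-fold higher. At chr19:27390001-27391000 the control held 28 reads and was at least 8.83-fold higher.

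The other 5 were at least 8.30-fold to 8.52-fold higher by the same bound. They were chr3:5202001-5203000 (20 control reads), chr10:36196001-36197000 (24), chr5:4763001-4764000 (27), chr15:44449001-44450000 (24) and chr10:28836001-28837000 (25). In all 10 the control rose to between 4.02 and 6.12 times its 100 kb mean, with 7 to 19 of its reads on the plus strand, so no bin was a pile of reads on 1 strand. Annotation of these positions was not analysed here, so the genes at them are not named.

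The bins next to these 10 differed widely. At rank 1 the neighbours held 10 and 9 control reads against 6 and 8 ChIP reads, so that the ChIP library returned to its surroundings within 1 kb. At rank 6 the neighbours held 7 and 4 control and 3 and 3 ChIP reads. At rank 8, by contrast, the neighbours held 22 and 16 control reads and 1 and 5 ChIP reads, and at rank 5 they held 12 and 17 control reads and 1 and 1 ChIP read. In all, 5 of the 20 neighbouring bins of the 10 themselves reached the ratio of 4.

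**Figure D1:**
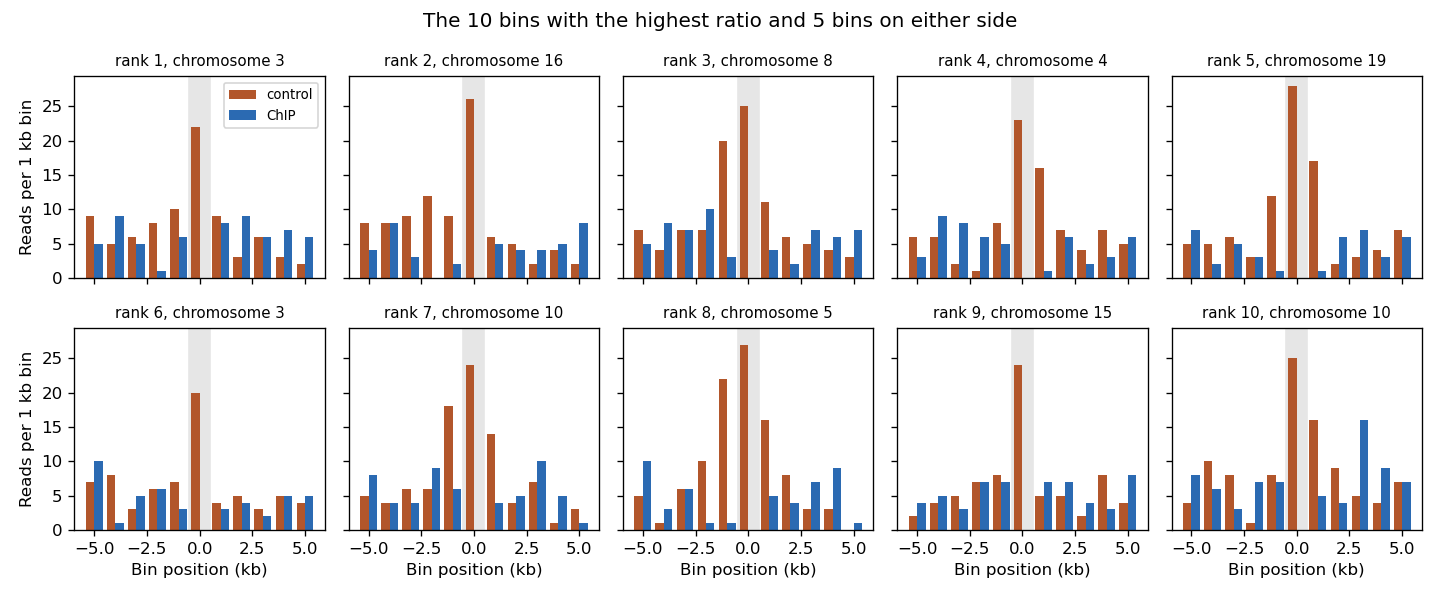
Reads per 1 kb bin (y axis) by position in kb (x axis). Panels show the 10 bins with the highest ratio outside chromosome 18, with 5 bins on either side. The control is in brown, the ChIP library in blue and the bin that met the rule is shaded. Each shaded bin holds 20 to 28 control reads and 0 ChIP reads, and the neighbouring control bars are raised in some panels and level in others.

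The bins with the most control reads were limited by the rule to 29. Among members whose 100 kb held 200 or more control reads, 378 had this count. Outside chromosome 18, the 3 members with 29 control reads and the highest ratio were chr1:64551001-64552000, chr10:110600001-110601000 and chr17:79260001-79261000. All 3 had 0 ChIP reads against surroundings of 5.68 to 5.99 per kb. They were at least 8.14-fold, 7.90-fold and 7.71-fold higher in the control, with the same floor and the control count again taken as exact.

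Reads beside the bins were compared with those in the surroundings. The rule used them through s and, for the 1813 bins that touch another control-enriched bin, directly. The control stayed raised in the 2 flanking bins, at 1.28 times its 100 kb mean, and the ChIP library was at 0.962 times. The ratio of the libraries in the flanks, relative to that of their 100 kb, was 1.33 (exact conditional interval 1.32 to 1.33). At 2 kb it was 1.11 (1.10 to 1.11), at 5 kb 1.05 (1.04 to 1.05) and at 10 kb 1.02 (1.02 to 1.03). The 19415 bins that touched no other had flanking control reads at 1.21 times and flanking ChIP reads at 0.993 times the surroundings, a ratio of 1.22 (1.21 to 1.23). Leaving out touching bins also selects on the flanks, so neither value is free of the rule. At 2 kb the ChIP library of all members stood at 1.01 times its 100 kb mean. The low ChIP counts thus ended almost at the edge of the bin that the rule had chosen, while the control declined over several kb. A step at that edge follows in part from choosing fixed bins by their ChIP counts.

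Eligible bins that missed the rule gave the reference. They were weighted to the same control counts and the same deciles of s as the control-enriched bins, and carry no interval. In their flanks the control stood at 1.22 times its 100 kb mean and the ChIP reads at 1.07 times theirs, a ratio of 1.14. The control was thus raised beside bins of equal control count in both sets. The sets were not matched on their surroundings, where the control averaged 7.72 reads per kb for the members and 8.46 for the reference, so the sizes of the rise are not compared. The reference was also chosen by missing the rule, and its own bins held ChIP reads at 1.16 times their surroundings.

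**Figure D2:**
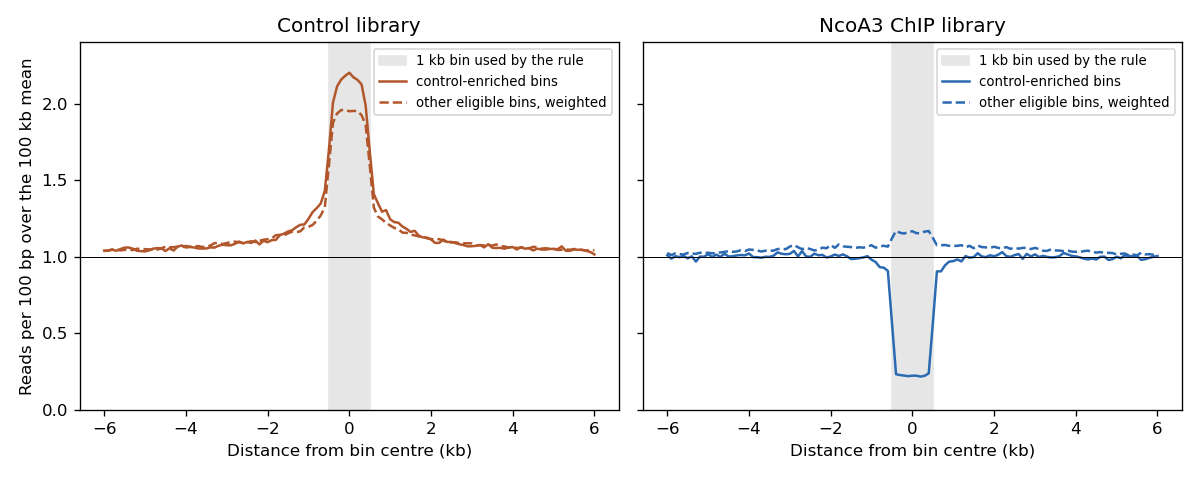
Reads per 100 bp over the 100 kb mean (y axis) by distance from the bin centre in kb (x axis), in the control (left) and the ChIP library (right), for control-enriched bins (solid) and other eligible bins weighted to the same control counts and s (dashed); the shaded 1 kb was used by the rule. In the control both lines decline gradually from the bin, and in the ChIP library the solid line returns from 0.225 at the centre to 0.905 at 600 bp.

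Among control-enriched bins, the flanking control grew with the control count of the bin. In the flanks the ratio was 1.15 (1.14 to 1.15) for bins with 10 to 14 control reads and 1.34 (1.33 to 1.36) for 15 to 19. It was 1.52 (1.503 to 1.54) for 20 to 24 and 1.59 (1.57 to 1.62) for 25 to 29. The control itself stood at 1.11, 1.28, 1.44 and 1.55 times its surroundings in these flanks. The ChIP library showed no such order, at 0.970, 0.9504, 0.946 and 0.974 times. For the 1080 bins with 20 or more control reads and no ChIP read, it was 0.922 times, with a flank ratio of 1.44 (1.41 to 1.48). No reference was made by control count. In eligible bins that missed the rule, the flanking control was at 1.10 times, with a mean of 13.5 control reads per bin. Weighted to the members' control counts and s, with a mean of 16.2, the flanking control was at 1.22 times. The rise with the control count is thus not shown to be particular to the members.

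A view that did not select on ChIP reads was taken over all autosomal bins whose 100 kb held 200 or more control reads. Bins were grouped by their control count alone, and the ChIP reads were set against the 100 kb mean. ChIP reads rose from 0.219 times that mean in bins with no control read to 1.01 times with 3 and 1.10 times with 7. They stood at 1.08 times with 10 (interval 1.08 to 1.09). They fell to 1.003 with 19 (0.994 to 1.01) and to 0.922 with 29 (0.901 to 0.944). Between 10 and 29 control reads, the range of the rule, the ChIP level was thus lower at the upper end than at the lower. Above it the values had no clear order, at 0.903 with 32 control reads (0.876 to 0.930) and 1.08 with 39 (1.02 to 1.13). The share of bins with no ChIP read went from 1.31% at 10 control reads to 3.14% at 29. The share past the ratio of 4 went from 2.93% to 23.3%, which follows in part from the rule, since the control count is in it.

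**Figure D3:**
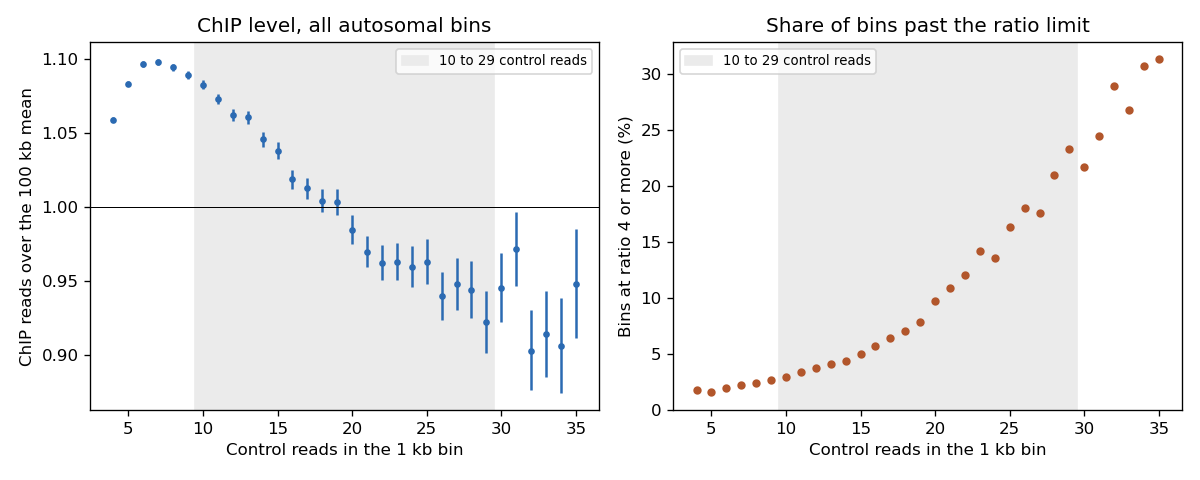
ChIP reads over their 100 kb mean (left, y axis, with exact Poisson 95% intervals) and the share of bins at a ratio of 4 or more in percent (right, y axis), by control reads in the bin (x axis), over autosomal bins with 200 or more control reads in their 100 kb. Between 10 and 29 control reads the ChIP level goes from 1.08 to 0.922 while the share past the ratio goes from 2.93% to 23.3%.

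Most control-enriched bins touched no other. Of the 21228, 1813 (8.54%, interval 8.17% to 8.92%) did, in 806 pairs, 60 runs of 3 and 5 longer runs, the longest of 5 bins. With s from all autosomal reads the touching share was 23.8%, of 51598 bins. Among eligible bins 1 kb away, 10.99% (10.5% to 11.5%) were control-enriched themselves. That compares with 5.07% of all eligible bins and with 6.42% beside the weighted reference. The share was 6.67% at 2 kb, 4.56% (4.20% to 4.95%) at 10 kb and 4.04% at 50 kb, against 4.53%, 3.91% and 3.68% in the reference. Neighbouring bins share fragments and the same s, so they are not independent.

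With gaps of up to 10 kb joined, the bins formed 17637 clusters, of which 14815 held 1 bin (69.8% of the members) and 32 held 5 or more. Outside chromosome 18, the cluster with most members was chr4:109472001-109484000, where all 12 bins were eligible and 9 met the rule. Its control held 14 to 29 reads in every bin and 240 in all, 2.58 times the 100 kb mean. The ChIP library held 0 to 4 reads per bin and 26 in all, 0.393 times its mean. Here the low ChIP counts ran over the whole 12 kb, unlike the pattern around most bins.

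Raised control and low ChIP counts also ran together at chr13:55005001-55024000, where 8 of 16 eligible bins met the rule. Its 19 bins held 319 control reads (1.87 times the surroundings) and 40 ChIP reads (0.413 times). At chr11:77283001-77293000, 6 of 9 eligible bins met the rule, with 204 control reads (2.35 times) and 22 ChIP reads (0.406 times). The ChIP library was nearer to its surroundings in the remaining clusters of the 5 with most members. At chr11:6289001-6316000, with 7 members, it stood at 0.706 times and the control at 1.65 times. At chr2:25684001-25716000, with 6 members, the values were 0.832 and 1.32 times. Clusters were ranked by their members, so these values describe them and are no test.

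The bins were spread over all 19 autosomes, with a median of 8 in each of 2352 blocks of 1 Mb that had 2000 or more control reads. The fullest block, chr5:34000001-35000000, held 29 of 352 eligible bins, and 42 blocks held none. By chromosome, the density ran from 7.43 per Mb on chromosome 3 to 11.1 per Mb on chromosome 11. As a share of eligible bins the order was different. Chromosome 3 was highest at 6.70% (6.33% to 7.08%), followed by chromosome 18 at 6.67%, and chromosome 11 was near the bottom at 4.18% (3.96% to 4.40%).

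Chromosome 8 had the lowest share, 1062 of 32831 eligible bins or 3.23% (3.05% to 3.43%), below the interval of every other autosome. Its density, 8.04 per Mb, lay inside the range of the other autosomes. Its control averaged 7.23 reads per bin and its ChIP library 5.25, against 5.20 and 4.62 on chromosome 3. Chromosome 11 averaged 7.62 control and 4.71 ChIP reads per bin, with a share of 4.18%. Coverage thus differed between chromosomes 8 and 3 along with the share, and so did the number of the authors' peaks (278 on chromosome 8 and 112 on chromosome 3). Their part in the difference was not tested. Without chromosome 8, 5.23% of eligible bins met the rule.

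**Figure D4:**
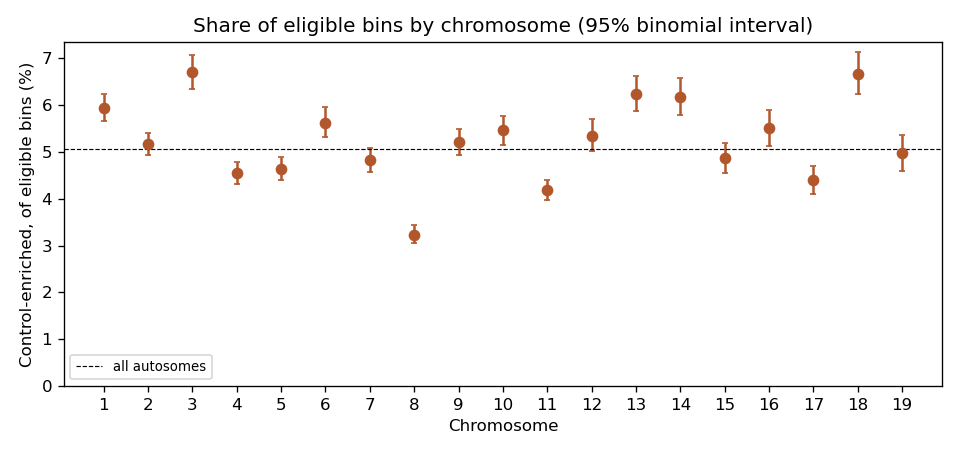
Control-enriched bins as a percent of eligible bins (y axis) for each autosome (x axis), with 95% binomial intervals and the share over all autosomes as a dashed line. Chromosome 8 is lowest at 3.23%, and chromosomes 3 and 18 are highest at 6.70% and 6.67%.

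The share also differed with the surroundings, which enter the rule through s. In the quintile of eligible bins with the least control coverage around them (up to 6.65 reads per kb) 10.3% met the rule. In the quintile with the most (11.97 or more) it was 2.31%. By s, the share went from 2.54% in the lowest quintile to 9.43% in the highest. A higher s lowers the control count that the ratio demands, so these shares are partly set by the rule and are given as a description.

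The position of control reads within a bin was not used by the rule. Plus-strand reads made up 50.02% of them (49.9% to 50.2%), and 8 bins had reads on 1 strand only. Mean 5′ positions of minus-strand reads lay 19.5 bp (SE 1.002 over bins, SD 146) to the right of those of plus-strand reads. In the unweighted remainder of eligible bins the offset was 8.19 bp (SE 0.262), and weighted to the same control counts and s it was 15.001 bp. Bins with 20 or more control reads had 27.1 bp (SE 1.44). The SD of positions within a bin averaged 268 bp, against 272 bp in the weighted reference, so reads were spread over most of the 1 kb in both.

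Distances to the authors' peaks were measured from the edge of each bin. The 1995 autosomal peaks of the authors' list were called from these libraries, on 12003106 ChIP and 18332357 control tags in the authors' deposited table, more than the reads counted here. Few ChIP reads are part of the rule, so overlap with a peak is not independent of it. Of the control-enriched bins, 3 (0.0141%) overlapped a peak and 36 (0.170%) lay within 1 kb. Within 10 kb lay 377 (1.78%, interval 1.60% to 1.963%), and within 100 kb lay 3073 (14.5%, 14.0% to 14.96%). The median distance was 515 kb (504 to 527). Of all autosomal bins, 0.139% overlapped a peak, 0.297% lay within 1 kb, 1.64% within 10 kb and 12.8% within 100 kb, with a median of 576 kb. The members were thus less often in a peak than autosomal bins at large, and slightly more often within 100 kb of one. Autosomal bins at large include those with too few control reads to be eligible. Of the authors' autosomal peaks, 357 had a control-enriched bin within 10 kb, and no peak had more than 3.

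Against eligible bins that missed the rule, the order was the other way within 100 kb. Of those, 2.396% (2.35% to 2.44%) lay within 10 kb and 16.0% (15.9% to 16.1%) within 100 kb. Their median distance, 508 kb, was inside the interval of the members. Weighted to equal control counts and s, 4.48% lay within 10 kb and 22.2% within 100 kb, with a median of 387 kb. Leaving out bins within 10 kb of a peak, 12.9% (12.5% to 13.4%) of the members and 18.5% of the weighted reference lay within 100 kb. Without chromosome 8, 13.8% of control-enriched bins and 19.9% of the weighted reference lay within 100 kb. The weights were not set again for these subsets, so the match to the members is not exact in them. Mean ChIP coverage in the 100 kb was 4.85 reads per kb around the members and 5.32 around the weighted reference, and its part in the distances was not tested.

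**Figure D5:**
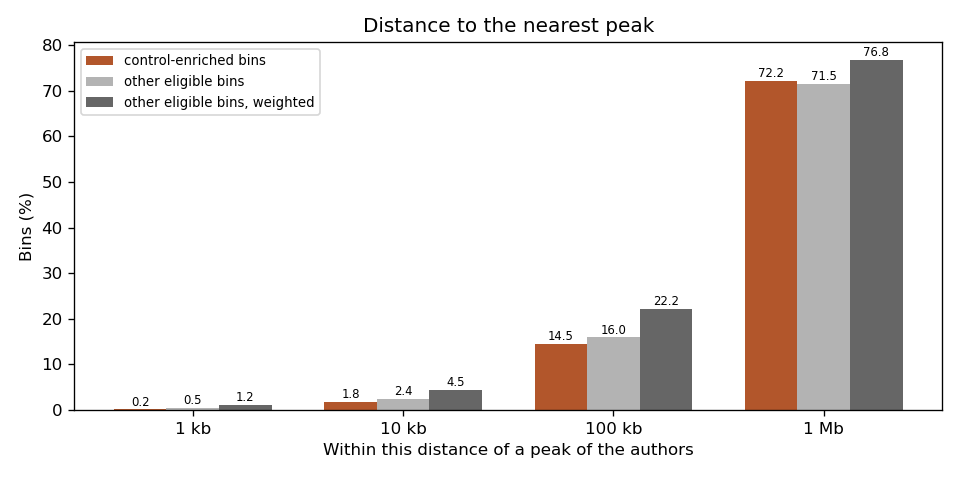
Percent of bins (y axis) within 1 kb, 10 kb, 100 kb and 1 Mb of the nearest peak of the authors (x axis), for control-enriched bins, other eligible bins, and other eligible bins weighted to the same control counts and s. Within 100 kb the shares are 14.5%, 16.0% and 22.2%.

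The 3 bins that overlapped a peak did so by 27 to 129 bp and lay at its edge. The bin chr2:180639001-180640000 held 29 control and 0 ChIP reads, while the bin to its left held 9 control and 39 ChIP reads. The peak over that boundary has 40 tags and a fold enrichment of 7.14 in the authors' deposited table. At chr4:118572001-118573000 the member held 19 control and 0 ChIP reads, beside a bin with 23 control and 30 ChIP reads. At chr1:57985001-57986000 the counts were 10 and 1, beside 7 and 15, and the scaled ratio without pseudocount was 7.70 (exact conditional interval 1.10 to 334). The next nearest outside chromosome 18 were chr13:113584001-113585000 (23 control and 3 ChIP reads) and chr5:23717001-23718000 (16 and 1). They lay 2 bp and 30 bp from a peak. These 5 were chosen for lying next to a peak, so a neighbour rich in ChIP reads follows from the choice. At chr4:118572001-118573000 that neighbour also held more control reads than the member.

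The same rule with the libraries exchanged gave a comparison, in a set that also holds bins in the authors' peaks. Of 151364 autosomal bins with 10 to 29 ChIP reads, 11080 (7.32%) had a scaled ratio of ChIP to control of 4 or more. They held ChIP reads at 2.405 times and control reads at 0.368 times the 100 kb mean. The share was higher than the 5.07% of control-enriched bins, although their number was smaller and fewer bins were eligible on the ChIP count. The libraries differed in depth, with 4.53 ChIP and 5.999 control reads per autosomal bin. A count of 10 was thus further above the mean in the ChIP library, so the shares are not at equal stringency. With s from all autosomal reads the order of the shares turned, at 11.4% ChIP-enriched and 12.3% control-enriched. ChIP-enriched bins lay in a peak in 3.25% (2.93% to 3.60%), and in their flanks ChIP reads stood at 1.15 times their surroundings and control reads at 0.951 times. The library that was high in the bin was thus also raised in the flanks in both directions, and the other library was close to its surroundings. Counts of both libraries chose the bins in either direction.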

How the data were processed

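Aligned reads of 1 NcoA3 ChIP library and 1 control library were deposited as positions, and the submitters' processing notes name mm8. The aligner was not given in the sources used here. Reads spanned 35 bp, with at most 1 per start and strand. Minus-strand starts on the mitochondrial chromosome reached 16298 and plus-strand starts 16265, and starts on opposite strands coincided most often 33 bp (ChIP) and 34 bp (control) apart. The recorded start was therefore taken as the 5′ end on both strands, counted from 0 as in BED files. Per the file headers, MACS 1.4.1 was run by the authors with a p-value limit of 1e-05, giving 2017 peaks. Those headers give 12003106 ChIP and 18332357 control tags and allow up to 2 tags per position. The deposited reads are fewer, and at most 1 per position and strand limits high counts in both libraries. The deposited list gives tag counts, and the authors' fold enrichment is a ratio to local background. The score, a log10-scaled p-value per the file headers, and the false discovery rate in percent deposited with it were not used.

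Reads were counted per 1 kb bin with numpy 2.4.6 and pandas 2.3.3, and intervals computed with scipy 1.17.1, under Python 3.11.15. With 1 library per group no test between groups was made. Intervals are Clopper-Pearson for shares, conditional exact for ratios and order-statistic for medians. Counting was tested on simulated data. The rule and the lists were chosen with earlier results of these data known. Named bins were the 10 with the highest ratio, the 3 with most control reads (ties by ratio, an order chosen after seeing the data), the 5 nearest to a peak and the 5 clusters with most members, leaving out chromosome 18. The alternatives changed the pseudocount, the span of s, the bin grid, the read position, the ratio limit, the read limits and the chromosomes or bins used. The reference tables were on another build, so no gene or sequence is given.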

Additional observations from a re-analysis of the deposited data

How the results depend on the processing

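Each group holds 1 library, so no library was left out, and differences between cultures or library preparations cannot be told apart from those between ChIP and control. No paired analysis was possible because there are no replicates. Depth limits single bins: at about 5 ChIP reads per kb, a count of 0 to 2 is weakly bounded.

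A pseudocount of 0.5 gave 32101 bins (7.67% of eligible), a median of 535 kb to a peak, 10.5% touching another and a flank ratio of 1.29. With s taken without the bin itself, 5.31% met the rule. With s from 1 Mb it was 6.17%, with 11.2% touching and a flank ratio of 1.502. With s from all autosomal reads there were 51598 bins (12.3%), at 651 kb, with 23.8% touching, a flank ratio of 1.23, 17314 bins (11.4%) with the libraries exchanged and a strand offset of 14.4 bp. That set held 86.8% of the 21228 bins, which made up 35.7% of it. A ratio of 5 or more left 11836 bins (2.83%), with 6.10% touching, a flank ratio of 1.37 and 5185 bins with the libraries exchanged. Requiring 15 to 29 reads left 10926 bins (8.65%), at 502 kb, with 10.05% touching, a flank ratio of 1.46, a strand offset of 23.4 bp and 1189 bins with the libraries exchanged. Moving reads 75 bp inward gave a flank ratio of 1.32 and, by construction, a strand offset of 145 bp, and 72.7% of the 21228 bins stayed in the set. Without chromosome 8, 5.23% met the rule. Shifting bins by 500 bp moved no value beyond its interval.

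Other alternatives were chosen after seeing the data. Reading the minus-strand 5′ end at the recorded end gave a strand offset of 24.4 bp and held 90.4% of the 21228 bins. Without bins within 10 kb of a peak, the median distance was 531 kb. The flank ratio stayed above 1 in every alternative listed. It was also above 1 in eligible bins that missed the rule, at 1.06 unweighted and 1.14 weighted. A value above 1 is thus not particular to the members.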

Other observations

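Outside the range of the rule, the ratio of 4 was reached by 2319 of 8138 autosomal bins with 30 to 49 control reads (28.5%, interval 27.5% to 29.49%). With 50 or more control reads it was reached by 75 of 411 (18.2%, 14.6% to 22.3%), so the share did not go on rising with the control count.

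Chromosome X, which the rule leaves out, held 1125 bins with 10 to 29 control reads, of which 380 (33.8%, interval 31.02% to 36.6%) reached the ratio. Their medians were 13 control and 1 ChIP read, in surroundings of 3.19 and 2.72 reads per kb. With the libraries exchanged, 101 of 399 bins (25.3%) reached it. Chromosome X averaged 2.07 control and 2.10 ChIP reads per bin, against 5.999 and 4.53 on the autosomes, so a bin of 10 reads there is further above its surroundings in either library.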
